A study of Mus musculus with 12 samples.

Results

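This account covers the SUMO-KO genotype in the striatum of mice that carry an expanded CAG repeat in the huntingtin gene. The 6 libraries, of 12 in the series, were chosen by their labels: 3 Q175HD/SUMO-KO libraries were set against 3 Q175HD libraries, over all genes of the count table. Both genotypes carry the neo-deleted Q175 knock-in allele of Htt. The Q175HD label names the stock B6J.129S1-Htttm1.1Mfc/190ChdiJ, and the Q175HD/SUMO-KO label adds the SUMO knockout. The other 6 libraries, 3 labelled SUMO-KO with the SUMO knockout alone and 3 labelled WT, give the same knockout without the knock-in. All are labelled as striatal cells on the background C57/BL6. Age, sex and the number of mutant alleles per animal are not given in the labels.

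SUMO proteins are small modifiers that an enzyme cascade attaches to lysines of other proteins. Sae1 and Uba2 form the activating enzyme, Pias proteins and Ranbp2 act as ligases, and the Senp proteases remove the modifier. Sumo2 and Sumo3 encode closely related modifiers. Huntingtin is a target of SUMO attachment, and the striatal GTPase Rhes, encoded by Rasd2, is known to promote it. In Huntington's disease the spiny projection neurons, the main cell type of the striatum, lose expression of many of their identity genes.

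Total RNA was depleted of ribosomal RNA and sequenced. Reads assigned to genes ranged from 11237097 to 17226419 per Q175HD/SUMO-KO library and from 12976828 to 14846019 per Q175HD library. The filter on low counts left 17796 of 53465 genes. Striatal projection neuron genes were abundant in all 6 libraries, with Ppp1r1b between 405 and 788 CPM (CPM, reads scaled to a common library size). Library Q175HD/SUMO-KO 2 stood apart: it had 18386 reads of Xist, the X-inactivation transcript of females, and 0 of the Y-linked gene Ddx3y, while the other 5 had at most 21 reads of Xist and at least 1138 of Ddx3y. Outside these 6, SUMO-KO 2 (19854 reads of Xist and 0 of Ddx3y) and WT 2 (18092 and 2) had the same pattern. Q175HD was the only genotype without such a library. Ttr, the main choroid plexus transcript, ranged from 45.6 to 4721 CPM over the 6 libraries, with high and low libraries in both genotypes. Col1a1, a fibroblast collagen, was at 82.8 CPM in Q175HD/SUMO-KO 1, while the remaining libraries of the 6 had 5.98 to 11.5 CPM. The labels do not state whether the libraries of a genotype are separate animals, so a p-value here measures only the spread between samples, which may be technical. With 3 libraries a group, the smallest two-sided p of an exact permutation test is 0.1.

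The modifier genes Sumo2 and Sumo3 did not pass the test. On the per-length scale of the authors' deposited TPM table, Sumo2 had 29.1, 32.9 and 24.2 TPM in Q175HD/SUMO-KO and 31.4, 36.7 and 31.7 TPM in Q175HD. Sumo3 lay above Sumo2 in each of these 6 libraries, with 107, 118 and 96.3 TPM in Q175HD/SUMO-KO and 116, 114 and 128 TPM in Q175HD. In both genes the genotypes overlapped. In the count test, an edgeR quasi-likelihood test with p-values adjusted after Benjamini and Hochberg, the log2 fold change was -0.07 for Sumo2 (95% interval -0.31 to 0.18) and -0.02 for Sumo3 (-0.30 to 0.27). The intervals leave room for a rise of at most 0.27 on the log2 scale in either gene.

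Several enzymes of the SUMO cascade varied little, while other members of the pathway had larger values in both directions. The log2 fold changes were 0.04 for Sae1 and 0.06 for Uba2, 0.09 for the ligase gene Pias1 and 0.08 for Ranbp2, and 0.08 and 0.04 for the proteases Senp1 and Senp2. Among other ligase genes, Pias2 was at 0.09, Pias3 at -0.20 (SE 0.14) and Pias4 at -0.24 (SE 0.16). Of 27 genes of the SUMO pathway described here, 0 passed by edgeR and by DESeq2, against 0.0337% of all genes tested by edgeR. At an unadjusted p under 0.05 there were 2, beside 5.28% of all genes tested. They were Senp8, which was higher (0.53, SE 0.18), and Desi1, which was lower (-0.32, SE 0.14). Of these 27, 19 had a positive log2 fold change, and the median was 0.06, beside 57.7% of genes and a median of 0.04 over all genes tested. Over the other gene lists 3 members passed by edgeR, Nr4a3, Gabra2 and Nnt, and DESeq2 called these and Hoxd8, so its count was 0 wherever 0 is given for a list other than the developmental one. Among 19 genes of nuclear bodies and SUMO-dependent chromatin factors 0 passed by edgeR. At an unadjusted p under 0.05 there were 2, both lower (2.59% of all genes tested). They were the kinase gene Hipk2 (157 to 179 CPM in Q175HD/SUMO-KO and 191 to 291 CPM in Q175HD, log2 fold change -0.51, SE 0.14) and Pml, the organizer of PML bodies (13.5 to 17.4 CPM in Q175HD/SUMO-KO and 18.3 to 21.8 CPM in Q175HD, -0.38, SE 0.14).

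Across the genome 6 of 17796 genes passed at an adjusted p under 0.05 by edgeR, 0.0337% of those tested. The 4 that rose (0.0225%) were Gm28411, Gabra2, Nr4a3 and Nnt, and 6820402A03Rik was among the 2 that fell (0.0112%). At an unadjusted p under 0.05 there were 939 genes (5.28%), and at an unadjusted p under 0.001 there were 25 (0.14%). The authors' deposited table for the same pair, made with DESeq2, lists 19 genes at an adjusted p under 0.05, of which 13 were higher and 6 lower in Q175HD/SUMO-KO, and it holds all 6.

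**Figure D1:**
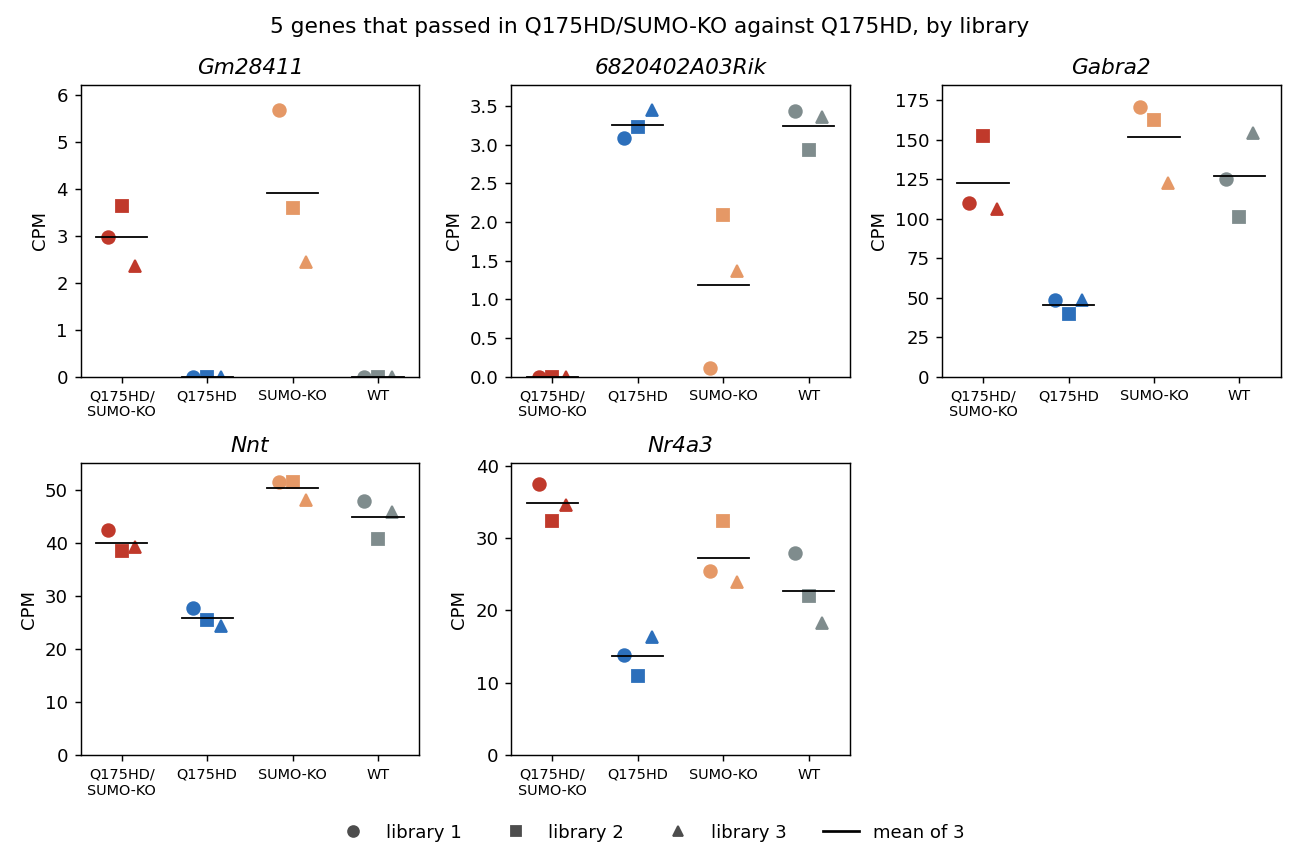
CPM of 5 genes that passed in Q175HD/SUMO-KO against Q175HD, by genotype. Each point is a library and each bar the mean of 3. Gm28411 has 0 reads in every Q175HD and WT library, and 6820402A03Rik has 0 reads in every Q175HD/SUMO-KO library. For Gabra2, Nnt and Nr4a3 the Q175HD libraries are the lowest of the 4 genotypes.

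Nr4a3, an orphan nuclear receptor gene of the immediate early class that neurons induce on activity, was higher in Q175HD/SUMO-KO. It had 37.5, 32.4 and 34.6 CPM in Q175HD/SUMO-KO, against 13.8, 10.9 and 16.3 CPM in Q175HD. The genotypes did not overlap, and the log2 fold change was 1.35 (SE 0.18, edgeR adjusted p = 0.0178). The call was lost without Q175HD/SUMO-KO 1 (edgeR adjusted p = 0.102), Q175HD 1 (0.098) or Q175HD 2 (0.141). In SUMO-KO it had 25.5, 32.3 and 23.9 CPM, and in WT 27.9, 21.9 and 18.2 CPM, which overlapped (0.26, SE 0.18, edgeR adjusted p = 0.491).

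The stretch just before the GENCODE start of Nr4a3 is shown because immediate early genes are known targets of the activity-regulated factor CREB, whose recognition sequence is built of TGACG and its reverse complement CGTCA. The sequence, from RefSeq (GRCm38.p6, chr4:48045055-48045152, plus strand), has these letters in capitals.
Nr4a3: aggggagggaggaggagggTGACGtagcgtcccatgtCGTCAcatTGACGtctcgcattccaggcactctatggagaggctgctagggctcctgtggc
A search of both strands found TGACG at 2 positions and CGTCA at 1, with no overlap among them. At least 1 such match lies in 5.22% of 98-base windows taken from 32851 promoters at the same distance from the RefSeq start, and 3 or more in 0.0274%. For Nr4a3 the RefSeq start is at 48045305 and the GENCODE start at 48045153. The windows were placed by RefSeq starts, so these shares are not those of stretches just before GENCODE starts. The matches describe the letters of this window and were not tested as binding sites.

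Other immediate early genes did not pass. Of 24 tested, Nr4a3 alone passed by edgeR, 16 had a positive log2 fold change and the median was 0.20, beside 0.04 over all genes. Fosl2, a Fos family transcription factor, had 63.5, 42.9 and 67.2 CPM in Q175HD/SUMO-KO and 31.0, 26.7 and 36.3 CPM in Q175HD (0.89, SE 0.22, edgeR adjusted p = 0.862). Nr4a2 had 5.95, 20.3 and 5.65 CPM in Q175HD/SUMO-KO, of which library 2 was the highest, and 3.72, 3.68 and 3.06 CPM in Q175HD (edgeR adjusted p = 0.903). Fos, the prototype of the class, had 17, 8.51 and 21.4 CPM in Q175HD/SUMO-KO and 18.3, 14.8 and 20.7 CPM in Q175HD. The list median was -0.04 without Q175HD/SUMO-KO 3.

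Gabra2, which encodes the alpha 2 subunit of the GABA-A receptor, had 110, 152 and 106 CPM in Q175HD/SUMO-KO and 48.3, 39.4 and 48.8 CPM in Q175HD. The groups did not overlap, and the log2 fold change was 1.43 (SE 0.19, edgeR adjusted p = 0.0187). SUMO-KO libraries had 171, 162 and 122 CPM and WT libraries 125, 101 and 154 CPM, so the 3 Q175HD libraries were the lowest of all 12. Other receptor genes did not pass. Of 38 glutamate and GABA receptor genes tested, 21 had a positive log2 fold change (57.7% of all genes tested), and the median was 0.01. With Gabra2 among them, 4 had an unadjusted p under 0.05, beside 5.28% of all genes tested. The abundant AMPA receptor subunit Gria2 had 743 to 837 CPM in Q175HD/SUMO-KO and 698 to 772 CPM in Q175HD. Gabra4, another GABA-A subunit gene of the striatum, had 140 to 170 CPM in Q175HD/SUMO-KO and 149 to 179 CPM in Q175HD. When single libraries were left out, Gabra2 still passed without Q175HD/SUMO-KO 3 and not in the other 5 of the 6 fits. The highest edgeR adjusted p was 0.173, without Q175HD 2, and the call was also lost with a term for sex.

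Nnt, the mitochondrial nicotinamide nucleotide transhydrogenase, had 42.4, 38.4 and 39.2 CPM in Q175HD/SUMO-KO and 27.8, 25.5 and 24.2 CPM in Q175HD. The log2 fold change was 0.63 (SE 0.09, edgeR adjusted p = 0.0258), and the Q175HD libraries were again below the SUMO-KO (48.1 to 51.6 CPM) and WT (40.8 to 48.0 CPM) libraries. The call was lost without any 1 of the 6 libraries, with an edgeR adjusted p between 0.0754 and 0.262, and was also lost with the 6 knock-in libraries alone and with median-ratio size factors. Gabra2 and Nnt are both known to carry variants that differ between C57BL/6 substrains. Of the other genes of this kind that were looked at, Crb1 had 1.37, 1.09 and 1.80 CPM in Q175HD/SUMO-KO and 0.632, 1.13 and 0.731 CPM in Q175HD (0.79, SE 0.34, edgeR adjusted p = 0.903). Cyfip2 had 650, 591 and 697 CPM in Q175HD/SUMO-KO and 715, 770 and 744 CPM in Q175HD (-0.20, SE 0.13, edgeR adjusted p = 0.903). The labels give the background as C57/BL6 and name no substrain for the knockout, and the part of substrain in these values was not tested.

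Gm28411, an antisense transcript on the minus strand inside Gm973 (chromosome 1, 59532991 to 59549521, GRCm38), had 2.98, 3.62 and 2.34 CPM in Q175HD/SUMO-KO (119 reads in all) and 0 reads in Q175HD. It was at least 42.3-fold higher, against a floor of 3 counts over the Q175HD group, which covers counting error only (edgeR adjusted p = 0.0178). The same transcript had 5.69, 3.59 and 2.44 CPM in SUMO-KO and 0 reads in WT, at least 48.5-fold higher on the same floor. The gene around it, Gm973, had 10.4 to 12.8 CPM in Q175HD/SUMO-KO and 11.3 to 13.3 CPM in Q175HD. The strand counted by the authors is not given in the sources used here, so reads of the transcript and of its antisense partner may not be separable. The call was kept without Q175HD/SUMO-KO 2 or 3 and lost without any other of the 6 libraries (edgeR adjusted p of at most 0.0937).

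6820402A03Rik (chromosome 1, 66793645 to 66796298, minus strand), a transcript whose annotation awaits experimental evidence and that lies inside Kansl1l on the same strand, had 0 reads in Q175HD/SUMO-KO and 3.09, 3.23 and 3.45 CPM in Q175HD (139 reads in all). It was at least 44.5-fold lower, against a floor of 3 counts over the Q175HD/SUMO-KO group (edgeR adjusted p = 0.0258). The call was lost without any 1 of the 6 libraries, with an edgeR adjusted p between 0.0764 and 0.173. Kansl1l itself had 34.7, 40.2 and 36.8 CPM in Q175HD/SUMO-KO and 28.6, 23.8 and 26.6 CPM in Q175HD (0.50, SE 0.12, edgeR adjusted p = 0.685). In SUMO-KO the transcript was at 0.105, 2.09 and 1.36 CPM, against 3.43, 2.93 and 3.35 CPM in WT, so SUMO-KO 1 lay near the knock-in knockout libraries.

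Genes of chromosome 1 were frequent among the smallest p-values. Of 24 genes at an unadjusted p under 0.001 that were placed by chromosome, 10 lay on chromosome 1, while 1218 of the tested genes lie there. Gm28411 and 6820402A03Rik are both on it. At an unadjusted p under 0.05 there were 85 of the 1218 (6.98%), beside 5.28% of all genes.

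Several of these genes, chosen after their values were seen, did not overlap between the 2 knock-in genotypes and did not pass by edgeR over the 12 libraries, while DESeq2 called 4 of them, Gm25939, Sp110, Wdfy1 and Aox4. Gm25939, an annotated small nuclear RNA, had 2.49, 4.46 and 1.20 CPM in Q175HD/SUMO-KO and 252, 237 and 308 CPM in Q175HD (edgeR adjusted p = 0.685). In SUMO-KO it had 3.58, 171 and 299 CPM, and in WT 284, 402 and 433 CPM. The SUMO-KO libraries thus spanned the range of both knock-in genotypes, and that spread enters the test through the shared dispersion. With the 6 knock-in libraries alone Gm25939 passed (edgeR adjusted p = 0.00125). Sp110 and Sp140, neighbouring genes of the SP100 family of nuclear body proteins, had 1 and 2 reads in all Q175HD/SUMO-KO libraries together, and 69 and 41 reads in Q175HD (edgeR adjusted p = 0.0928 for each). Sp100, the next gene of the same family, had 2.82 to 3.45 CPM in Q175HD/SUMO-KO and 2.59 to 7.36 CPM in Q175HD. SUMO-KO 1 had 0 CPM of Sp110, against 0.698 and 0.860 CPM in SUMO-KO 2 and 3.

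Of the other genes of the group, Wdfy1, Aox4 and Zdbf2 had higher values in Q175HD/SUMO-KO, and Mlph had lower ones. Wdfy1, an endosomal adaptor gene, had 56.4, 58.6 and 56.0 CPM in Q175HD/SUMO-KO and 24.3, 21.5 and 23.2 CPM in Q175HD. It had 48.0, 53.6 and 57 CPM in SUMO-KO and 56.7, 21.5 and 48.1 CPM in WT, so WT 2 matched the Q175HD level (1.31, SE 0.26, edgeR adjusted p = 0.421 over 12 libraries and 0.000723 in the 6 knock-in libraries alone). Aox4, an aldehyde oxidase, had 2.41, 4.63 and 1.5 CPM in Q175HD/SUMO-KO and 0.421, 0.526 and 0.199 CPM in Q175HD (2.87, SE 0.48, edgeR adjusted p = 0.0928). SUMO-KO libraries had 1.60 to 2.44 CPM of Aox4 and WT libraries 0.419 to 0.754 CPM. Zdbf2, an imprinted gene, had 130, 136 and 129 CPM in Q175HD/SUMO-KO and 100, 81.5 and 105 CPM in Q175HD (0.46, SE 0.10, edgeR adjusted p = 0.472). Mlph, the melanosome transport gene melanophilin, had 1.05, 1.43 and 1.08 CPM in Q175HD/SUMO-KO and 3.44, 3.30 and 3.65 CPM in Q175HD (-1.55, SE 0.35, edgeR adjusted p = 0.492).

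**Figure D2:**
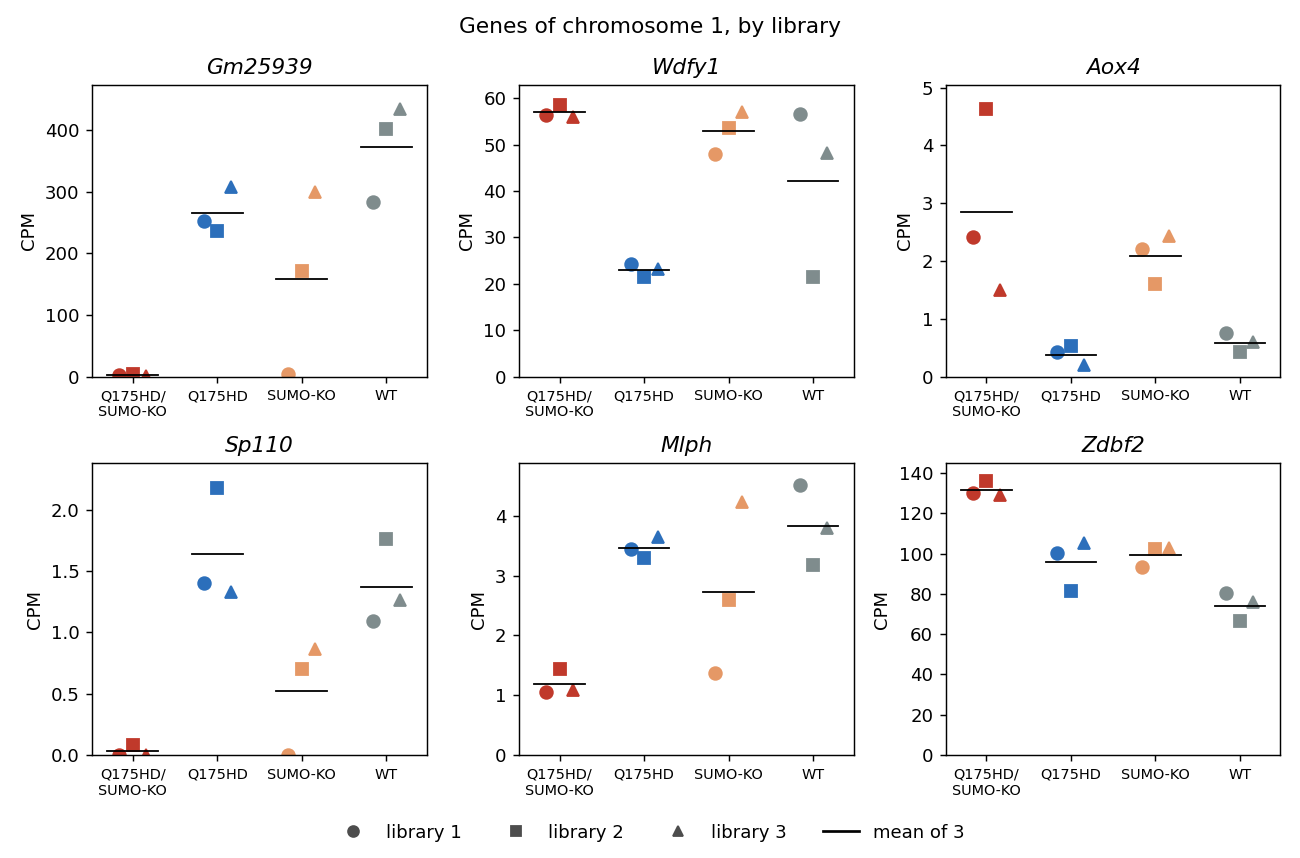
CPM of 6 genes of chromosome 1 by genotype, each point a library and each bar the mean of 3. For Gm25939, Sp110 and Mlph, SUMO-KO 1 lies with the Q175HD/SUMO-KO libraries and SUMO-KO 2 and 3 lie above it. For Wdfy1, WT 2 lies with the Q175HD libraries.

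No striatal projection neuron gene was called higher in Q175HD/SUMO-KO. Of 48 tested, 0 passed by edgeR, 7 had an unadjusted p under 0.05, all of them lower (2.59% of all genes tested), and 41 had a negative log2 fold change. The median was -0.16, beside 0.04 over all genes. The mean of the list, on the log2 CPM scale relative to WT, was -0.72, -1.14 and -0.62 in Q175HD/SUMO-KO and -0.63, -0.70 and -0.57 in Q175HD, so library Q175HD/SUMO-KO 2 was the lowest and the genotypes overlapped. Without that library the median was -0.06. In bulk tissue fewer cells of a type and less RNA per cell cannot be told apart.

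Ryr1, an intracellular calcium release channel, had 14.8, 17.1 and 12.5 CPM in Q175HD/SUMO-KO and 16.6, 16.5 and 16.2 CPM in Q175HD, while WT libraries had 112 to 120 CPM. The log2 fold change was -0.16 (95% interval -0.47 to 0.15). The phosphodiesterase Pde10a had 728, 463 and 733 CPM in Q175HD/SUMO-KO and 858, 839 and 829 CPM in Q175HD (-0.39, SE 0.14, edgeR adjusted p = 0.903). Its WT libraries had 1850 to 2055 CPM, above all 6 knock-in libraries. Rasd2 had 340, 145 and 353 CPM in Q175HD/SUMO-KO and 391, 419 and 404 CPM in Q175HD. Its genotypes did not overlap, with library 2 far below the others (-0.53, SE 0.27, edgeR adjusted p = 0.903, and -0.22 without that library). Scn4b, a sodium channel subunit, showed the same low library, with 319, 102 and 338 CPM in Q175HD/SUMO-KO and 386, 375 and 407 CPM in Q175HD.

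Direct and indirect pathway markers had 0 calls by edgeR among 9 and 7 tested genes. The median log2 fold change was -0.06 over the direct list, with 6 genes below 0 and 3 above. It was -0.23 over the indirect list, with 5 genes below 0 and 2 above. Of the direct list 1 gene and 2 of the indirect list had an unadjusted p under 0.05, beside 5.28% of all genes tested. The dopamine receptor Drd1 of the direct pathway had 176, 122 and 174 CPM in Q175HD/SUMO-KO and 174, 158 and 195 CPM in Q175HD. Tac1, the substance P precursor, and Pdyn, the dynorphin precursor, had log2 fold changes of -0.02 and -0.06. In the indirect pathway the enkephalin precursor Penk had 291, 248 and 334 CPM in Q175HD/SUMO-KO and 296, 263 and 326 CPM in Q175HD (-0.02, 95% interval -0.39 to 0.34). The adenosine receptor Adora2a had 103, 53.1 and 102 CPM in Q175HD/SUMO-KO and 120, 123 and 133 CPM in Q175HD (-0.54, SE 0.24, edgeR adjusted p = 0.903). Drd2 had 114, 59.5 and 108 CPM in Q175HD/SUMO-KO and 115, 115 and 124 CPM in Q175HD. Without library Q175HD/SUMO-KO 2 the log2 fold changes were -0.21 for Pde10a, -0.24 for Scn4b, -0.29 for Adora2a and -0.09 for Drd2. Htt itself had 190, 218 and 159 CPM in Q175HD/SUMO-KO and 206, 196 and 189 CPM in Q175HD (-0.06, 95% interval -0.30 to 0.18).

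**Figure D3:**
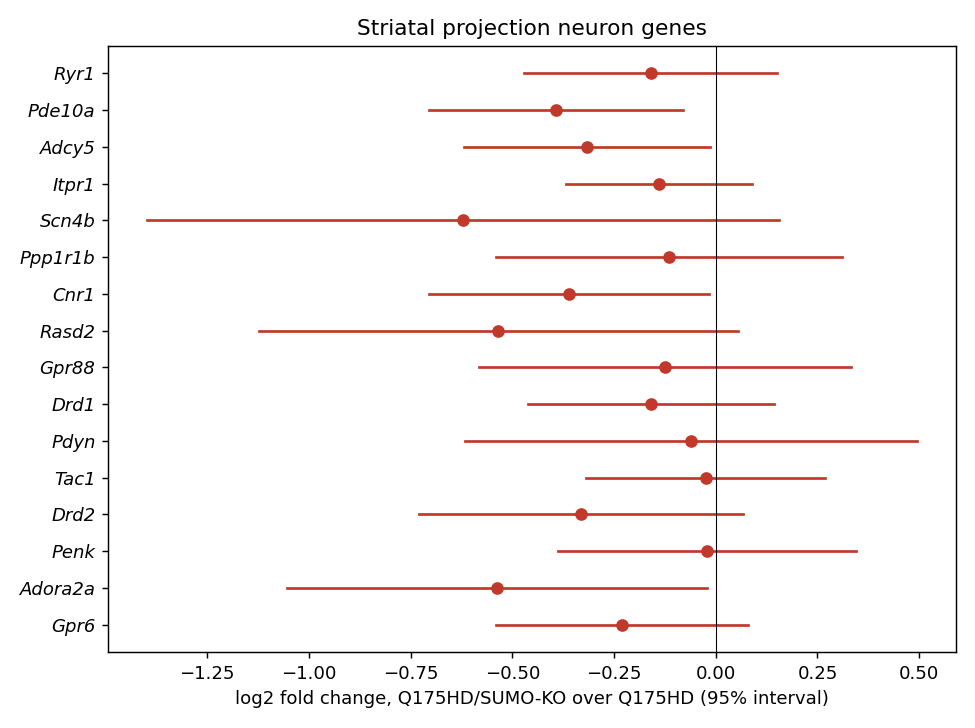
Log2 fold change of Q175HD/SUMO-KO over Q175HD for 16 genes of striatal projection neurons, with 95% intervals. The 16 were picked from the 48 tested genes of the list, and none of the 7 with a positive log2 fold change is drawn. Those 7 include Tmem158 (0.40), Homer1 (0.14) and Foxp2 (0.14). That all 16 point estimates are below 0 follows from the choice of genes and is not a result. None of the 16 passed the edgeR test over all genes. The 95% intervals of Pde10a, Adcy5, Cnr1 and Adora2a leave out 0.

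Developmental transcription factors had reads in both knock-in genotypes. Their summed level in WT, 105 to 119 CPM, came mostly from Onecut2 (81.8, 98.8 and 89.1 CPM in WT). Of 61 listed, 18 passed the filter on reads, and this filter lets a gene in through the genotype where it is high. Of the 18, 0 passed by edgeR and 5 had an unadjusted p under 0.05, all Hox genes and all higher (2.69% of all genes tested). Hoxd8 met the filter only through Q175HD/SUMO-KO, where it is high, and could hardly have counted as lower. The count by direction is therefore not read as a result for the list. Hoxd8 had 2.17, 3.54 and 3.13 CPM in Q175HD/SUMO-KO, 0.421, 0.526 and 0.465 CPM in Q175HD, and 0 reads in SUMO-KO and WT (2.62, SE 0.39, edgeR adjusted p = 0.116 and DESeq2 adjusted p = 0.0209). Hoxc5 had 7.96, 17.3 and 8.59 CPM in Q175HD/SUMO-KO and 4.63, 4.96 and 3.72 CPM in Q175HD (1.34, SE 0.33, edgeR adjusted p = 0.862). Hoxc4 had 8.44, 15 and 9.80 CPM in Q175HD/SUMO-KO and 6.04, 4.81 and 5.65 CPM in Q175HD. In all 3 Hox genes the 2 groups did not overlap, and library Q175HD/SUMO-KO 2 was the highest. Factors outside the Hox clusters differed among themselves. Wt1 had 7.16, 10.1 and 7.15 CPM in Q175HD/SUMO-KO and 5.90, 5.48 and 6.58 CPM in Q175HD, and Shox2 had 14.2, 18.0 and 20.7 CPM in Q175HD/SUMO-KO and 13.8, 13.4 and 13.6 CPM in Q175HD. Neither gene overlapped between these genotypes, and neither passed (edgeR adjusted p = 0.903 for Wt1 and 0.935 for Shox2). With 3 libraries a group, groups that do not overlap reach an exact permutation p of 0.1 at best. The share of all genes without overlap is not given here. Lmx1b overlapped, with 10.6, 15.2 and 11.8 CPM in Q175HD/SUMO-KO and 15.7, 11.9 and 11.3 CPM in Q175HD.

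Myelin genes leaned downward without a call, with 20 of 21 tested genes of the myelinating oligodendrocyte list at a negative log2 fold change, a median of -0.37 and 10 at an unadjusted p under 0.05, all of them lower (2.59% of all genes tested). By edgeR 0 passed. Myrf, the transcription factor of myelination, had 78.4, 70.7 and 82.1 CPM in Q175HD/SUMO-KO and 105, 143 and 87.5 CPM in Q175HD (-0.54, SE 0.15, edgeR adjusted p = 0.87). Mbp, the myelin basic protein, had 2700.2, 1791 and 3095 CPM in Q175HD/SUMO-KO and 2828, 3964 and 2983 CPM in Q175HD, so library 2 was the lowest of Q175HD/SUMO-KO and the highest of Q175HD. The list means overlapped. The median was -0.23 without Q175HD/SUMO-KO 2 and -0.21 without Q175HD 2, and without library 2 of both genotypes, a choice made after seeing the data, the median was -0.07. Oligodendrocyte precursor genes had a median of -0.28 over 12 tested genes, with 0 calls by edgeR. Of the 12, 2 had an unadjusted p under 0.05, both lower (2.59% of all genes tested).

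Interferon response genes had a median of -0.35 over 33 tested genes, of which 27 were at a negative log2 fold change, 6 had an unadjusted p under 0.05, all of them lower, and 0 passed by edgeR (2.59% of all genes tested had an unadjusted p under 0.05 and were lower). The list mean relative to WT was 0.42, 0.04 and 0.31 in Q175HD/SUMO-KO and 0.31, 1.22 and 0.19 in Q175HD. Library Q175HD 2 stood alone: Ifit3, an interferon-induced gene, had 7.96, 6.40 and 11.1 CPM in Q175HD/SUMO-KO and 10.8, 31.0 and 12.1 CPM in Q175HD. Without Q175HD 2 the median was 0.01. The complement gene C4b had 94.2, 125 and 86.4 CPM in Q175HD/SUMO-KO and 141, 199 and 128 CPM in Q175HD (-0.61, SE 0.18, edgeR adjusted p = 0.903). Microglial genes, with Csf1r at 79.7 to 90.0 CPM in Q175HD/SUMO-KO and 90.5 to 103 CPM in Q175HD, had a median of -0.11 over 27 genes, of which 0 passed by edgeR and 5 had an unadjusted p under 0.05, 4 of them lower (5.28% of all genes tested in either direction).

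Autophagy, which SUMO and Rhes have each been linked to, showed a median of -0.02 over 47 tested genes with 0 calls by edgeR. Of the 47, 2 had an unadjusted p under 0.05, beside 5.28% of all genes tested. Atg5, which is needed for autophagosome formation, had 23.6, 24.3 and 25.9 CPM in Q175HD/SUMO-KO and 19.9, 18.9 and 20.3 CPM in Q175HD (0.32, SE 0.09, edgeR adjusted p = 0.87). Sqstm1, the autophagy receptor p62, had 269 to 337 CPM in Q175HD/SUMO-KO and 288 to 312 CPM in Q175HD. The medians were 0.03 over 30 genes of the mTORC1 pathway, -0.10 over 38 lysosomal genes, 0.04 over 36 proteasome genes, 0.12 over 33 chaperone genes and -0.08 over 27 cholesterol synthesis genes. Cytosolic ribosomal protein genes had a median of 0.15 with 60 of 62 above 0, and list means relative to WT of 0.23, 0.29 and 0.34 in Q175HD/SUMO-KO and 0.01, 0.07 and 0.34 in Q175HD, which overlapped. In these 6 lists 0 genes passed by edgeR, with 12 at an unadjusted p under 0.05 (5.28% of all genes tested).

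Markers of neighbouring tissue varied between libraries of the same genotype. Ependymal genes had a positive log2 fold change in 13 of 13 tested, with a median of 0.51 and a summed level of 85.6 to 121 CPM in Q175HD/SUMO-KO and 60.1 to 83.5 CPM in Q175HD. Choroid plexus genes were above 0 in 18 of 19, with a summed level of 339 to 6832 CPM in Q175HD/SUMO-KO and 423 to 7361 CPM in Q175HD. Cortical excitatory neuron genes had a median of 0.56 over 25, which was 0.09 without Q175HD/SUMO-KO 2, 0.19 without Q175HD 3 and 0.28 without Q175HD 1, and a summed level of 1411 to 1894 CPM in Q175HD/SUMO-KO and 1688 to 1807 CPM in Q175HD. None of these lists had a gene that passed by edgeR. At an unadjusted p under 0.05 there were 1 ependymal, 0 choroid plexus and 3 cortical genes, beside 5.28% of all genes tested. The part of these markers in the projection neuron, myelin and Hox values was not tested.

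**Figure D4:**
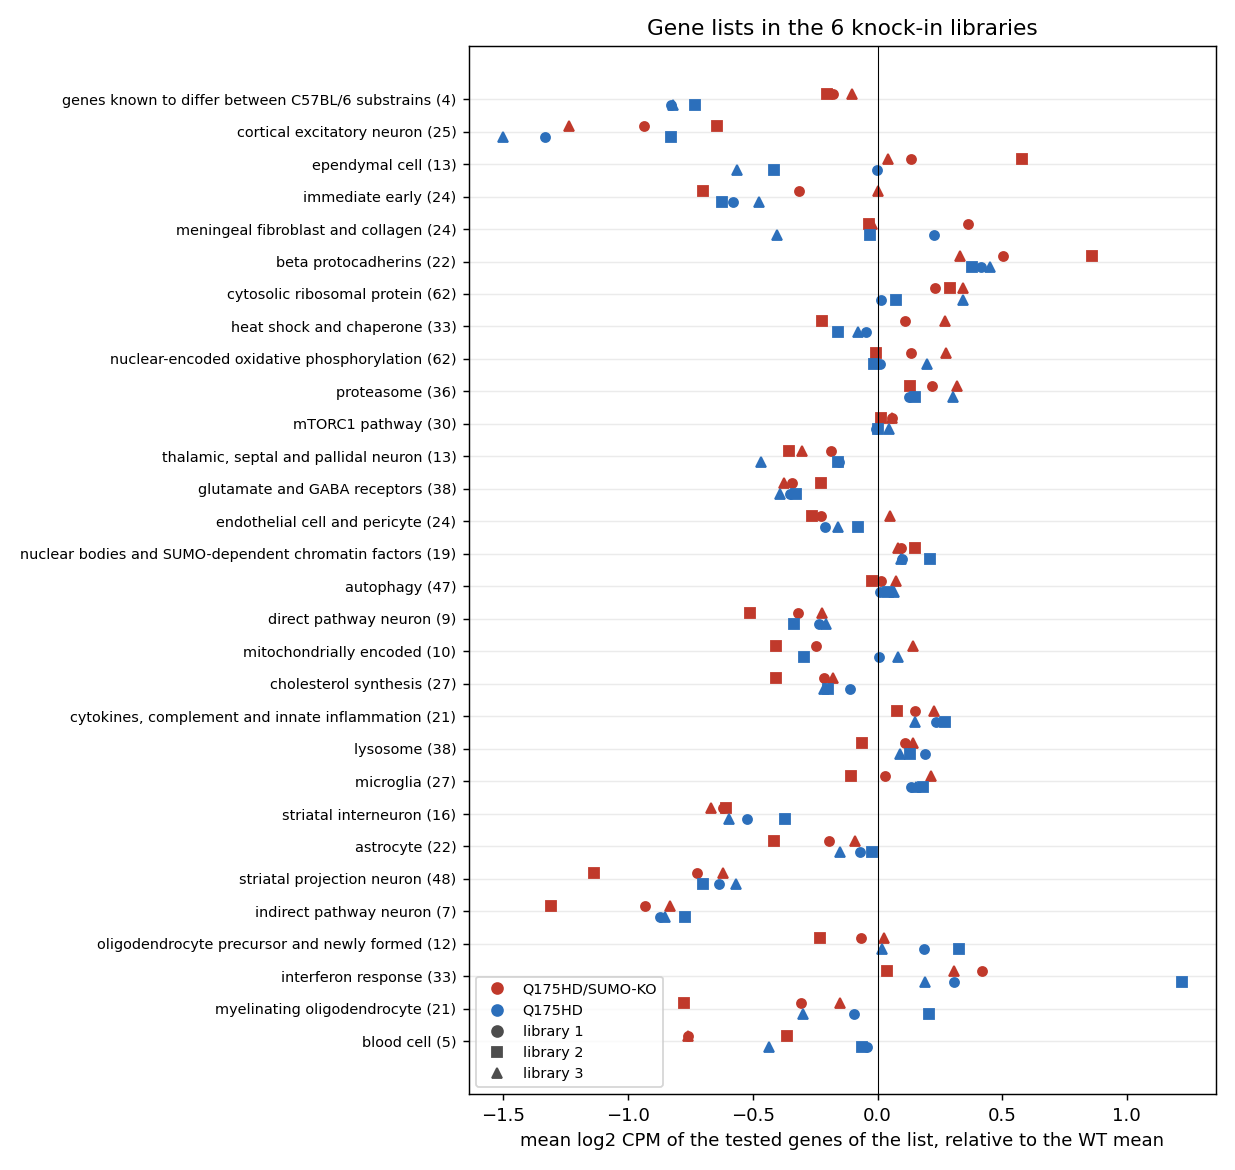
Mean log2 CPM of each gene list in the 6 knock-in libraries, relative to the WT mean, with the number of tested genes in parentheses. Q175HD/SUMO-KO points are drawn above Q175HD points and marker shapes give the library. Library Q175HD/SUMO-KO 2 is the lowest point of the projection neuron and myelinating oligodendrocyte lists, and Q175HD 2 is the highest of the interferon list.

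The same knockout without the knock-in gives a comparison that shares no library with this one. In SUMO-KO against WT 8 genes passed by edgeR (0.045% of those tested), of which Gm28411 also passed in Q175HD/SUMO-KO against Q175HD. Across 17795 genes, the log2 fold changes of the 2 pairs had a Pearson correlation of 0.335 and a Spearman correlation of 0.377, a description across genes, which are not independent replicates. Of the same 24 genes at an unadjusted p under 0.001 in Q175HD/SUMO-KO against Q175HD, 21 had the same sign in SUMO-KO against WT, beside 11519 of the 17795. A test of whether the effect of the knockout differed with the knock-in, the interaction term, called 0 genes by edgeR, with 770 (4.33%) at an unadjusted p under 0.05, and 32 by DESeq2. Gabra2 had an interaction of 1.17 on the log2 scale and Nr4a3 of 1.08, each with an edgeR adjusted p of 0.548. Both are among the 32 DESeq2 calls, with a DESeq2 adjusted p of 0.00758 for Gabra2 and 0.0442 for Nr4a3, as is 6820402A03Rik (DESeq2 adjusted p = 0.00514, edgeR adjusted p = 0.548).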

How the data were processed

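Members and lists were chosen with earlier results of these data known. The counts are whole reads per Ensembl gene, deposited by the authors without normalization. The deposited TPM values scale them by length and depth, and were used for Sumo2 and Sumo3. The authors' deposited table for the pair holds DESeq2 log2 fold changes, p-values, base mean signal and a test score, per the file headers; only its calls were compared. Per the submitters' processing notes, the tools were STAR 2.5.2a, cutadapt 2.10, Bowtie 1.1.2 and DESeq2, with the builds GRCm38 and mm10. The counting tool and strand setting were not given in the sources used here. Per the labels' protocols, libraries used a directional kit with ribosomal RNA depletion.

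The test was edgeR 4.0.16 (R 4.3.3): filterByExpr (minimum count 10, total 15), TMM scaling, 4 genotype means over 12 libraries, quasi-likelihood test, and Benjamini-Hochberg adjustment over 17796 genes, called under 0.05. The common BCV was 0.171. DESeq2 1.42.0 was an alternative. CPM uses TMM-scaled sizes, SE is the fold change over the root of F, and list means use log2 CPM with a prior count of 2. The fit was tested on simulated data. Genes were placed with GENCODE M21 (17766 of those tested were found). Replicates were not repeats of 1 library, with a chi-square per degree of freedom of 8.44 to 27.5. There were 33 gene lists. Some results, among them 1 called gene, are not reported here, and that gene is left out of counts by chromosome and of the comparison of the 2 knockout pairs.

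Named by rule were Sumo2, Sumo3, Htt, Rasd2, substrain genes, library checks, the 12 largest rises and falls among calls (mean count 50 or more, groups apart), called list members, up to 3 abundant members of lists with fewer than 2 calls, and interaction calls. Other names were chosen after their values were seen. Columns of other series: 0. Floors cover counting error only, and 95% intervals the fitted spread between libraries.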

Additional observations from a re-analysis of the deposited data

How the results depend on the processing

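The 6 calls between Q175HD/SUMO-KO and Q175HD were 5 with median-ratio size factors or a term for sex and 4 among genes of mean count 50 or more, but 19 with DESeq2, 18 with no filter on low counts and 11 with the 6 libraries alone. Without 1 library the number of calls ranged from 1 to 6. It was 1 without Q175HD/SUMO-KO 1, Q175HD 1 or Q175HD 2, 3 without Q175HD/SUMO-KO 2 and 2 without Q175HD 3. The genes were not always the same. Nnt and 6820402A03Rik passed in 0 of these 6 fits, while Aox4 and Zfp518a each passed in 1. Without library 2 of both genotypes, added after seeing the data, there was 1 call, with 1 among the lists. Calls among list genes, 4 in all, ranged from 1 to 3 without 1 library. For SUMO-KO against WT, 8 calls became 251 with DESeq2, 119 with no filter, 2 among genes of mean count 50 or more and 0 in its 6 libraries alone, and 0 to 1422 without 1 library. The interaction gave 0 calls, 32 with DESeq2, 2 with no filter, and 0 to 34 without 1 library. Causes were not tested.

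Replicate numbers did not pair the libraries: deviations of same-numbered libraries correlated at 0.293, 0.142 and -0.08, and 1 of 3 Q175HD/SUMO-KO libraries correlated best with its own number. With the replicate number as a block there were 4 calls, and 3 in the 6 libraries alone. No gene that passed changed direction. Depth limits low genes: with a floor of 3 counts, a library group cannot show a level under 0.0704 CPM in Q175HD.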

Other observations

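Among genes outside the lists, chosen after their values were seen, 2 noncoding RNAs had higher values in both knockout genotypes, and DESeq2 called both in Q175HD/SUMO-KO against Q175HD. Scarna2, a small Cajal body RNA, had 196, 229 and 302 CPM in Q175HD/SUMO-KO and 126, 116 and 108 CPM in Q175HD (log2 fold change 1.06, SE 0.19, edgeR adjusted p = 0.177). It had 230, 367 and 320 CPM in SUMO-KO and 153, 139 and 106 CPM in WT (1.21, edgeR adjusted p = 0.0578). Rian, a maternally expressed noncoding RNA of the imprinted Dlk1-Meg3 region, had 1007, 1122 and 916 CPM in Q175HD/SUMO-KO and 689, 644 and 761 CPM in Q175HD (0.54, SE 0.12, edgeR adjusted p = 0.472). It had 950, 952 and 815 CPM in SUMO-KO and 467, 571 and 548 CPM in WT, a difference that passed (0.78, edgeR adjusted p = 0.0371). Its neighbour Meg3 overlapped between Q175HD/SUMO-KO (1734 to 3416 CPM) and Q175HD (2027 to 2254 CPM).

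The zinc finger gene Zfp518a had 13, 13.1 and 15.4 CPM in Q175HD/SUMO-KO and 25.0, 22.3 and 21.3 CPM in Q175HD (-0.72, SE 0.11, edgeR adjusted p = 0.0548 and DESeq2 adjusted p = 0.000774). It had 17, 17.5 and 19.1 CPM in SUMO-KO and 25.3, 24.9 and 21.4 CPM in WT (-0.42, edgeR adjusted p = 0.192). Chl1, a neural cell adhesion gene, had 143, 179 and 136 CPM in Q175HD/SUMO-KO and 110, 110 and 111 CPM in Q175HD (0.47, SE 0.10, edgeR adjusted p = 0.472), while SUMO-KO (105 to 114 CPM) and WT (101 to 119 CPM) overlapped.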
